A study of Drosophila melanogaster with 3 samples.

Results

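Wide binding sites of the origin recognition complex (ORC) that lie outside dense runs of sites were described in Kc167 cells, a female Drosophila melanogaster line derived from embryos. They were chosen by width from the authors' peak list of the whole series, which joins overlapping peaks of 2 ORC2 ChIP-seq replicates. A joined peak on 2L, 3L, 3R or X was taken as wide at 400 bp or more. Peaks in a chain were left out, a chain being 5 or more joined peaks with consecutive midpoints at most 5000 bp apart. This gave 577 wide peaks, out of 4091 joined peaks on these 4 arms and 5159 in the whole series. Arm 2R was not part of the choice. They were set beside the 2991 narrower joined peaks outside chains and the 163 wide peaks in chains on the same arms.

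Both replicates were asynchronous cultures of the same line (genotype se/e, late embryonic stage), taken from separate extractions and precipitated with 1 rabbit polyclonal antibody raised against full-length ORC2. No treatment or second genotype was part of the design, and the labels do not say whether the extractions came from separate cultures. The input DNA sample entered no comparison. On the 4 arms replicate 1 had 6858 peaks with a median width of 128 bp and replicate 2 had 5152 with a median of 105 bp. The joined list had 4091 there, of which 523 lay in 83 chains. The authors gave each peak a score with no stated unit, and positions are on FlyBase release 5. How deeply either library was sequenced is unknown, so neither the precision of a peak edge nor that of a score can be stated.

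ORC binds chromatin before replication and loads the MCM helicase, and loaded helicases mark the places where replication forks can start. ORC2 is one of its core subunits. In Drosophila no strict sequence is known to define where ORC binds, and its sites are often found at open chromatin and near promoters. A peak of a ChIP-seq experiment is a stretch of DNA in which sequenced fragments are enriched, and it is wider than the protein's own footprint on DNA.

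Width was used to choose these peaks, so the widths that follow are a description. The 577 wide peaks had a median joined width of 523 bp (interquartile range 448 to 652 bp, highest 1825 bp) and covered 339.5 kb. They made up 16.2% of the joined peaks outside chains and 38.4% of the bases those peaks covered. With chains and widths read from a single list, 174 peaks (4.19%) were wide without replicate 1 and 407 (8.45%) without replicate 2. The single lists also hold peaks without a counterpart in the other replicate, which the joined list does not. These shares therefore have another base than the 16.2%. Most were only moderately wide, with 251 under 500 bp, 63 of 800 bp or more, and 30 of 1000 bp or more. The limit of 400 bp falls in a continuous range of widths. In the 5 widths from 400 bp upward lay 16 peaks, and in the 5 widths just below it lay 14. At 400 bp exactly were a 2L peak from 12045768 to 12046167, with 400 bp in replicate 1 and 151 bp in replicate 2, and an X peak from 13528240 to 13528639, where 2 replicate 1 peaks totalled 177 bp and the replicate 2 peak was 359 bp.

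Most wide joined peaks did not reach 400 bp in both replicates. A joined peak takes the outer limits of the replicate peaks it combines, so it reaches 400 bp when either replicate does. Among the 577 wide peaks, 167 (28.9%, exact 95% interval 25.3 to 32.8%) held a peak of 400 bp or more in both replicates. Another 356 held one in replicate 1 only and 32 in replicate 2 only. In the remaining 22 neither replicate had one, and the joined width came from combining narrower peaks. Over all joined peaks on these 4 arms, 6.09% had 400 bp or more in both replicates; this count follows from the rule of choice, and nothing is read from the difference. Here and below, intervals cover the counting of peaks only, not the variation between cultures. Where intervals are said to overlap, this does not show that the values are equal.

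**Figure D1:**
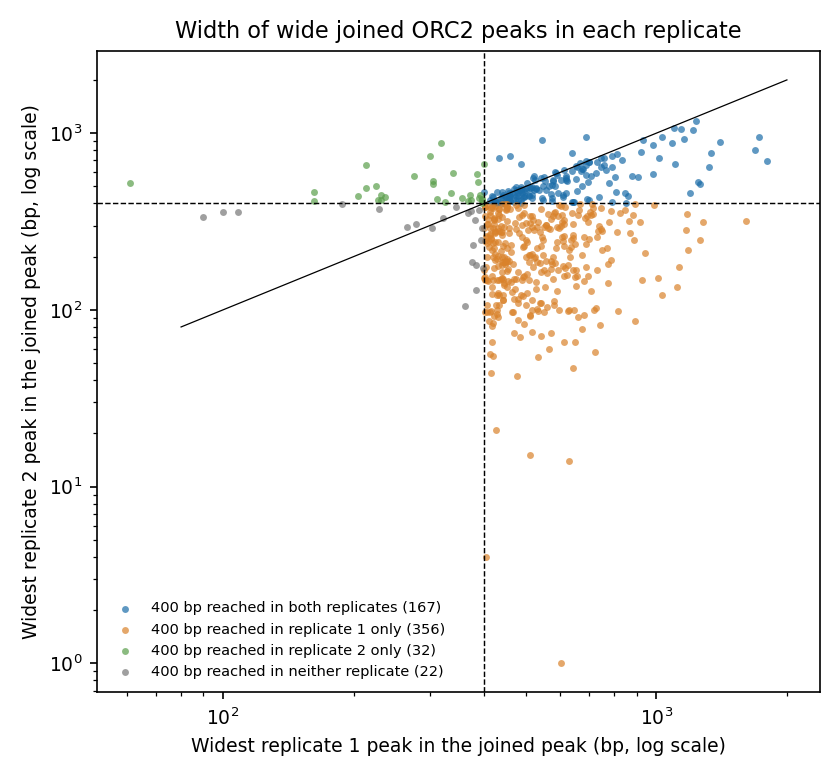
Width of the widest replicate 1 peak (horizontal, bp, log scale) and the widest replicate 2 peak (vertical, bp, log scale) in each of the 577 wide joined peaks outside chains. Dashed lines mark 400 bp and the solid line marks equal widths. Of the points, 356 lie right of the vertical line but below the horizontal one, and 167 lie beyond both.

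Replicate 1 set most of the outlines. Both limits of the joined peak came from replicate 1 in 372 of the 577 peaks, from replicate 2 in 28, and from different replicates in 177. This was not counted in the narrower peaks. A related measure, the replicate 2 peak lying inside the replicate 1 peak, held in 54.3% of all joined peaks of 1 peak each on these arms. Replicate 1 outlines were thus often the outer ones beyond the wide peaks too. The called width in replicate 1, summed over its peaks in a joined peak, had a median of 508 bp (lowest 115 bp, highest 1796 bp). In replicate 2 the median was 330 bp (lowest 1 bp, highest 1170 bp). The median ratio of replicate 2 to replicate 1 called width was 0.596 (95% interval of the median 0.555 to 0.631). In the narrower peaks outside chains it was 0.801 (0.788 to 0.813). Part of this contrast can follow from the rule of choice, since 1 long replicate peak suffices. The ratio was below 1 on every arm, from 0.545 on 3R to 0.633 on 2L.

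Choosing by 1 replicate and reading the other gave a view of width in which the joined width was not the rule of choice. This was done over the joined peaks outside chains made of 1 peak of each replicate, and it was added after the values above were seen. Joined peaks holding several peaks of a replicate were left out. With them, 523 joined peaks outside chains held a replicate 1 peak of 400 bp or more. Of these, 167 also held one in replicate 2. Where the replicate 1 peak was 400 bp or more (443 peaks, median 508 bp), the replicate 2 peak had a median width of 316 bp (291 to 344 bp) and was itself 400 bp or more in 157 (35.4%). Where the replicate 1 peak was narrower (3024 peaks), the replicate 2 median was 112 bp and 22 (0.728%) reached 400 bp. Chosen in replicate 2, 179 peaks were wide, and 157 (87.7%, 82.0 to 92.1%) of these were wide in replicate 1 as well. Wide peaks in 1 replicate were therefore wider in the other, but replicate 2 called fewer of them wide. These peaks are all shared between the replicates, so wide peaks found in only 1 list do not enter.

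Those were few. Of the 719 replicate 1 peaks of 400 bp or more on the 4 arms, chains included, 678 (94.3%) overlapped a replicate 2 peak, and of the 289 such replicate 2 peaks 288 (99.7%) overlapped a replicate 1 peak. The shares for narrower peaks were 56.0% and 80.6%. A wide peak meets a rule of 1 bp of overlap more easily than a narrow one.

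The part of the outline shared by the replicates was smaller in wide peaks than in narrower ones. Joined width chose the wide peaks and is also the divisor of this share. A long peak in 1 replicate alone is enough to be chosen, so nothing is read from the difference. In the wide peaks a median of 53.4% of the joined width was covered in both replicates (interval 50.6 to 56.2%), and in the narrower ones 67.4% (66.1 to 68.6%). At limits of 25% and 80% the shares in the tails were similar in both sets, with overlapping intervals. The share covered in both was under 25% in 76 wide peaks (13.2%) and in 11.4% of narrower ones, and 80% or more in 149 wide peaks (25.8%) and in 29.2% of narrower ones. In steps of 10 percentage points, 74 lay at 50 to 60%, 38 at 70 to 80% and 81 at 90 to 100%, with a low point between the outer values. The narrower peaks had no low point there and were most frequent at 80 to 90%, with 571 of 2991. Where both replicates reached 400 bp the median was 87.5% (84.4 to 90.2%), and where replicate 1 alone did, it was 41.6% (39.0 to 45.1%).

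**Figure D2:**
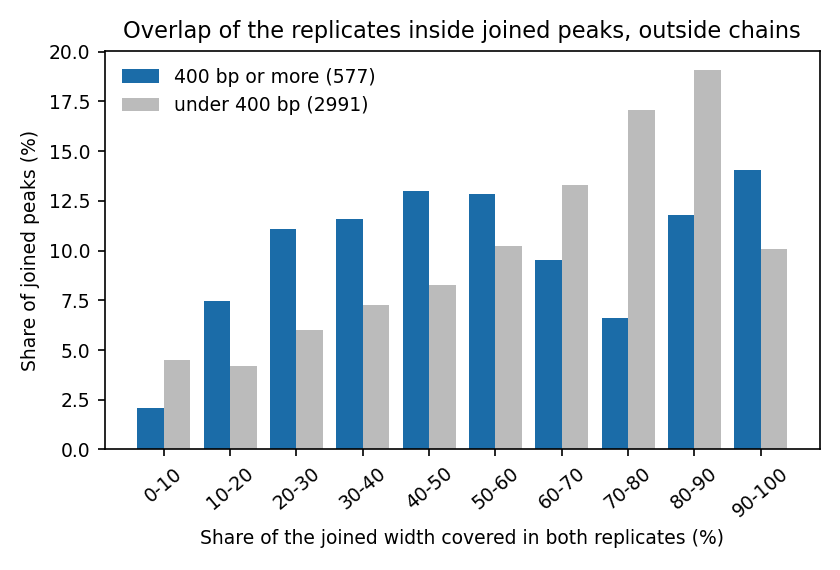
Share of joined peaks outside chains (vertical, percent of each set) by the share of their width covered in both replicates (horizontal, percent, in steps of 10 points). Blue bars are the 577 wide peaks and grey bars the 2991 narrower ones. The blue bars have a low point at 70 to 80% (38 peaks), and the grey bars are highest at 80 to 90% (571 peaks).

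Edges were compared in the 482 wide peaks made of 1 peak of each replicate. The mean of the left and right edge differences had a median of 114 bp (100 to 123 bp), against 24 bp (23 to 25 bp) in 2985 narrower peaks. Larger peaks leave room for larger differences. As a share of the joined width the medians were 20.5% (19.1 to 23.1%) and 16.3% (15.7 to 16.9%). This contrast too is shaped by the choice on joined width, so nothing is read from it. Both edges lay within 50 bp of each other in 102 wide peaks (21.2%). This share was 65.2% in narrower peaks and 32.8% in wide peaks of chains. The replicate 2 peak was the narrower of the pair in 429 (89.0%), against 78.1% in narrower joined peaks and 83.6% in wide peaks of chains. It lay wholly inside the replicate 1 peak in 315 (65.4%, 60.9 to 69.6%). Over all joined peaks of 1 peak each on these arms, 54.3% had the replicate 2 peak inside. The reverse nesting was found in 25, and 142 were staggered.

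In many wide peaks 1 edge was close between replicates and the other was not. In each of the 482 peaks the closer pair of edges and the farther pair were told apart, so the order of the next medians is fixed by this sorting. The closer pair differed by a median of 18.5 bp (16 to 21 bp) and the farther pair by 188.5 bp (165 to 207 bp). The corresponding medians in narrower peaks were 10 and 35 bp. In 234 wide peaks (48.5%, 44.0 to 53.1%) 1 edge agreed within 50 bp while the other was over 100 bp apart. This share was 12.1% in narrower peaks, which leave less room for it, and 32.8% (24.97 to 41.47%) in wide peaks of chains. Both edges were over 100 bp apart in 46 (9.54%), against 0.335% of narrower peaks and 4.48% of wide peaks in chains. The farther edge was the left one, at the lower coordinate, in 265 of 482 (55.0%, 50.4 to 59.5%). It was the left one in 49.2% (47.4 to 51.0%) of narrower peaks and 51.5% of wide peaks in chains, with overlapping intervals. Among the 286 peaks that reached 400 bp in replicate 1 only, 1 edge close and the other over 100 bp apart was found in 185 (64.7%). Among the 157 that reached it in both, it was found in 32 (20.4%), and their edges differed by a median of 5.81% of the joined width. These groups were set by the same widths, so the contrast between them is a description.

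The closest and the most distant outlines show the range. On 3L, the peak from 8417970 to 8418447 was called over 477 bp in replicate 1 and 475 bp in replicate 2, with edges 1 and 3 bp apart. The X peak from 21244920 to 21245379 was called over 456 bp by replicate 1 and 459 bp by replicate 2. The 3L peak from 8442919 to 8443411 was called over 487 bp by replicate 1 and 493 bp by replicate 2. In these 3 the replicates gave nearly the same outline. At the other end, an X peak from 3185194 to 3185795 was 602 bp in replicate 1 and 1 bp in replicate 2, with replicate scores of 2.07 and 3.61. A 3L peak from 22358288 to 22358691 was called over its whole length in replicate 1 and over 4 bp in replicate 2. An X peak from 18206561 to 18206998 was 426 bp in replicate 1 and 21 bp in replicate 2, and the smaller peak overlapped only its left end. Such peaks count as shared wide sites in the joined list although 1 replicate called almost no width there.

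Some wide peaks joined several peaks of a replicate. In 95 of the 577 wide peaks (16.5%, 13.5 to 19.7%) at least 1 replicate contributed more than 1 peak. Over all joined peaks on these arms this share was 3.18%, and 6 of the 2991 narrower peaks outside chains did so. The share rose with width, from 7.97% at 400 to 499 bp (20 of 251) to 34.9% at 800 to 1999 bp (22 of 63). A union of several peaks is wider by construction. In addition, no peaks of 1 replicate on these arms lay closer than 200 bp to each other, and both lists had gaps of exactly 200 bp as their smallest. A joined peak of 200 bp or less could therefore not hold 2 peaks of the same replicate.

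Replicate 2 was the divided one in most cases. Of the 95 peaks, 71 joined 1 replicate 1 peak with 2 replicate 2 peaks and 4 joined 1 with 3. In 19 it was replicate 1 that had 2 peaks, and in 1 both had 2. The largest gap left inside such a peak had a median of 237.5 bp (200 to 537 bp) over the 76 divided replicate 2 outlines, and 72 of these gaps were under 400 bp. Over the 20 divided replicate 1 outlines the median was 216 bp (200 to 383 bp). Most gaps were thus a little above the smallest spacing present in the lists. Both replicates still held a peak of 400 bp or more in 10 of the 95, replicate 1 alone did in 70 and replicate 2 alone in 10. In the remaining 5 no single replicate peak reached the limit.

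The 5 most divided wide peaks each joined 4 replicate peaks. On 3R, the peak from 14069215 to 14071039, also the widest of all at 1825 bp, joined a replicate 1 peak of 1796 bp with replicate 2 peaks of 131, 698 and 163 bp. On 2L, the peak from 2752182 to 2753364 joined 1183 bp in replicate 1 with 217, 155 and 194 bp in replicate 2. On X, the peak from 18757615 to 18758782 joined 1168 bp with 221, 282 and 37 bp. In these 3 the replicate 2 peaks were spaced along a replicate 1 peak that had no break. The X peak from 19415815 to 19416473 was smaller, with a replicate 1 peak of 659 bp over replicate 2 peaks of 88, 17 and 91 bp. The 3R peak from 14051772 to 14052776 was broken in both, with replicate 1 peaks of 81 and 689 bp, replicate 2 peaks of 576 and 154 bp, and breaks at different places.

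**Figure D3:**
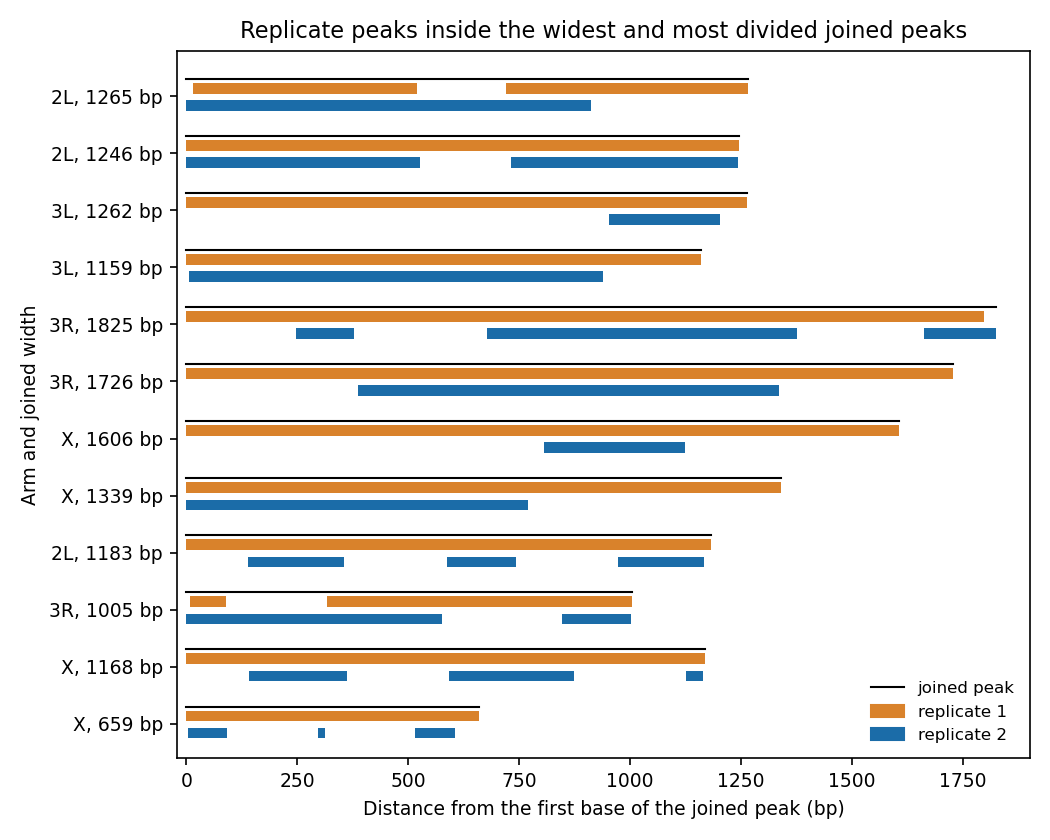
Replicate 1 peaks (orange) and replicate 2 peaks (blue) inside the 2 widest joined peaks of each arm and the 5 most divided ones (1 peak is both, giving 12 rows), against distance from the first base of the joined peak (bp). Black lines are the joined peaks, from 659 to 1825 bp. Replicate 1 runs unbroken over 10 of the 12, and replicate 2 covers them in 1 to 3 pieces.

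The widest peak of each arm varied in how far replicate 2 followed replicate 1. On 3R, the second widest, from 21831240 to 21832965, was 1726 bp in replicate 1 and 949 bp in replicate 2. The 2 widest on X were 1606 bp against 318 bp (5608707 to 5610312) and 1339 bp against 769 bp (4803932 to 4805270). On 3L they were 1262 bp against 249 bp (20393642 to 20394903) and 1159 bp against 932 bp (13481472 to 13482630). On 2L, the peak from 1118822 to 1120086 joined 2 replicate 1 peaks of 1049 bp in all with 912 bp, and the peak from 9699740 to 9700985 joined 1246 bp with 2 replicate 2 peaks of 1038 bp in all. Replicate 2 called less width than replicate 1 in all 8 of these.

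Taken as 1 set, wide peaks ranked lower in score than narrower ones. The authors' score comes from the same calls as the width, so it is described without a test, and because its scale may differ between chromosomes it is also given as a percentile among all joined peaks of the arm. The median score was 2.69 in the wide peaks and 2.95 in the narrower ones. The median percentile was 41.1 (37.0 to 45.0) and 53.5 (51.8 to 55.1). It was 47.5 (39.96 to 53.16) in the 167 peaks wide in both replicates, an interval that overlaps that of the narrower peaks, and 37.9 (32.9 to 41.6) in the 356 wide in replicate 1 only. The percentile was lower in wider bands, from 47.1 at 400 to 499 bp to 29.3 (22.5 to 36.3) at 800 to 1999 bp. By arm it lay between 35.7 on 3L and 48.9 on X. Of the wide peaks, 347 (60.1%, 56.0 to 64.2%) scored below the median of their arm.

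**Figure D4:**
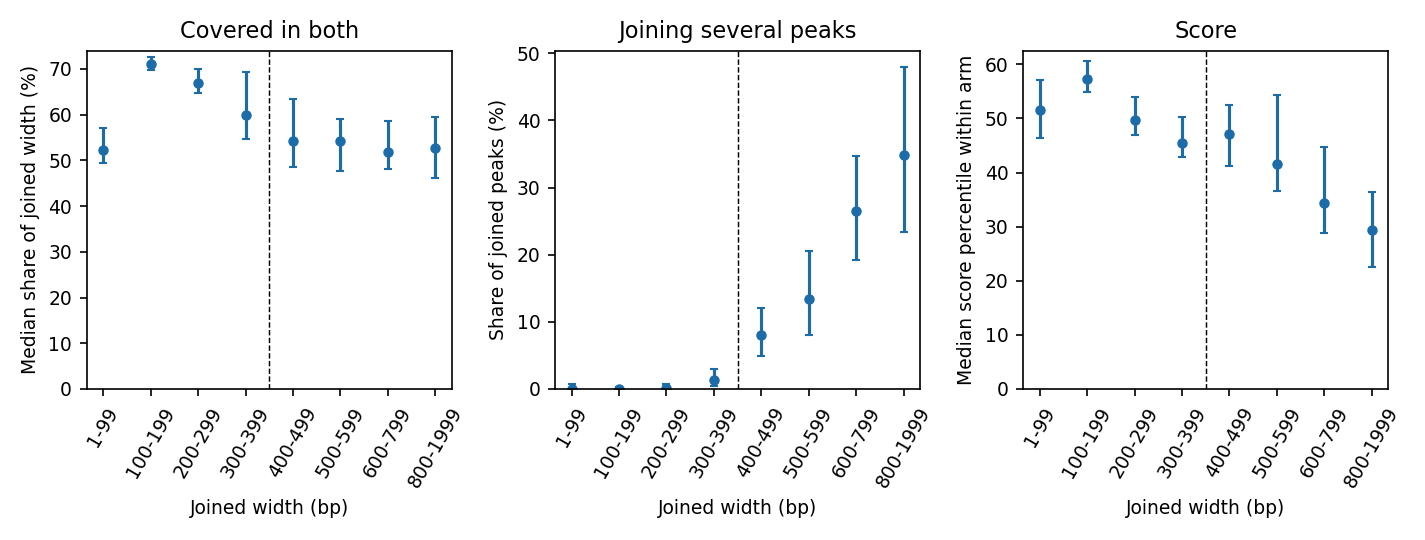
Joined peaks outside chains in 8 bands of joined width (horizontal, bp), with the median share of the width covered in both replicates (left, percent), the share joining several replicate peaks (middle, percent) and the median score percentile within the arm (right). Bars are 95% intervals and the dashed line marks 400 bp. The median covered share is 52.3% under 100 bp, highest at 71.2% in the next band and 52.8% in the widest, and the median percentile goes from 57.3 in the second band to 29.3 in the widest.

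Replicate scores were read in the same peaks, as the unweighted mean over a replicate's peaks where it had several. Wide peaks scored a median of 2.74 with replicate 1 and 2.59 with replicate 2, and the median ratio of replicate 2 to replicate 1 was 0.938 (0.924 to 0.958). In narrower peaks these were 2.98, 2.92 and 0.990 (0.979 to 0.997). Across the 577 wide peaks the replicate scores had a Spearman's rho of 0.614, against 0.792 across the 2991 narrower ones. Replicate widths had a rho of 0.253 across the 482 wide peaks of 1 peak each and 0.612 across the 2985 narrower ones. These describe peaks that share the same libraries, and choosing by joined width narrows the range of widths in each set.

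The highest and lowest scores were not in the widest peaks, and the highest included peaks close to the 400 bp limit. The highest percentiles were 98.5 on 3R (19033992 to 19034399, 408 bp), 97.0 on 2L (3301837 to 3302366, 530 bp) and 96.9 on X (173284 to 173697, 414 bp). Their replicate scores were 6.18 and 6.47, 5.87 and 5.98, and 5.12 and 6.03. The lowest were 0.117 on 2L (9896313 to 9897088, 776 bp), 0.213 on 3L (3386586 to 3387320, 735 bp) and 0.234 on 2L (1183598 to 1184265, 668 bp), with all replicate scores between 1.29 and 1.55. The 3 highest were between 408 and 530 bp wide and the 3 lowest between 668 and 776 bp.

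Wide peaks were found along all 4 arms. There were 128 on 2L, 127 on 3L, 161 on 3R and 161 on X. With arm lengths taken as the largest peak end in either replicate, this was 5.57 per Mb on 2L (exact 95% Poisson interval 4.65 to 6.63), 5.18 (4.32 to 6.16) on 3L, 5.77 (4.91 to 6.74) on 3R and 7.18 (6.12 to 8.38) on X. X had the highest density. Its interval overlapped those of 2L and 3R and, by a narrow margin, that of 3L, which does not show that the densities are equal. The difference between arms was not tested. The share of joined peaks outside chains that were wide was 17.3% on 2L, 14.9% on 3L, 15.2% on 3R and 17.6% on X, and all 4 intervals overlapped. Each of the 95 full windows of 1 Mb held at least 1 wide peak, and the fullest held 10 on 2L, 12 on 3L, 12 on 3R and 15 on X.

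Stretches without a wide peak outside chains were of similar length on the 4 arms. Wide peaks in chains were not counted here and may lie within them. The longest ran from 3478585 to 4457972 on 2L, from 4170718 to 5177733 on 3L and from 6090610 to 7257226 on 3R. On X it ran from 21245379 to 22415025, next to the last peak of the arm. Between midpoints these spans were 979.8, 1008, 1167 and 1170.2 kb. Of the 577 wide peaks, 194 lay within 10 kb of another wide peak outside chains, and the median spacing between successive ones was 57.5 kb on 3R and 86.0 kb on 2L. On 3R, 3 peaks of 1242, 1197 and 1302 bp followed each other between 23070332 and 23089918 with no joined peak midpoint within 5000 bp of any of them. That run was singled out after its widths were seen.

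Neighbours of the wide peaks were counted in the joined list. The leave-out of chains limits how crowded any of these peaks can be. The same rule applied to both sets, but it removed a larger share of the wide peaks. Of the 740 wide peaks on these arms 163 lay in chains, whereas 360 narrower peaks did and 2991 lay outside. No other midpoint lay within 5000 bp of 227 wide peaks (39.3%, 35.3 to 43.5%), against 46.1% (44.3 to 47.9%) of the narrower ones and 45.0% of all joined peaks outside chains. Over all joined peaks on these arms it was 39.2%, a figure that includes the chain peaks, which have a neighbour by definition. The remaining wide peaks sat in groups of 2 (164 peaks), 3 (114) or 4 (72). The median distance between midpoints to the nearest neighbour was 3019 bp (2320.5 to 3646 bp) for wide and 4282 bp (3948.5 to 4632 bp) for narrower peaks. These distances depend on the list and the chain rule. They were 1524 and 2336.25 bp without replicate 2, 2118.5 and 3330.5 bp without replicate 1, and 5949 (5490.5 to 7151.5) and 7206.5 bp (6666 to 7829.5) with chains of 3 or more, where the intervals overlap. The free gap between their edges had medians of 2556 and 4069 bp. Distances ranged widely, from 470.5 bp to 91.3 kb. The most distant wide peaks were on X at 829097 to 829796 (91257.5 bp from its neighbour), on 2L at 8825264 to 8825705 (89733 bp) and on 3R at 22895628 to 22896072 (80859 bp), and replicate 1 called 700, 425 and 440 bp of them against 418, 279 and 402 bp by replicate 2.

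The share of wide peaks was higher in larger groups. It was 14.1% (12.5 to 15.9%) among peaks with no neighbour within 5000 bp, 16.2% in groups of 2, 18.4% in groups of 3 and 21.7% (17.4 to 26.5%) in groups of 4. In chains it was 31.2%. Most nearest neighbours of wide peaks were narrower than 400 bp, but a larger share was wide than beside narrower peaks. Of the 350 wide peaks with a neighbour within 5000 bp, 110 (31.4%, 26.6 to 36.6%) had a neighbour of 400 bp or more, against 244 of 1613 narrower peaks (15.1%, 13.4 to 17.0%). Adjacent wide peaks count for each other here. Peaks without a counterpart in the other replicate were also near. Within 1000 bp of an edge, 26.9% of the wide and 21.0% of the narrower peaks had an unshared replicate 1 peak, and 8.67% and 6.52% had an unshared replicate 2 peak. The last pair has overlapping intervals.

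**Figure D5:**
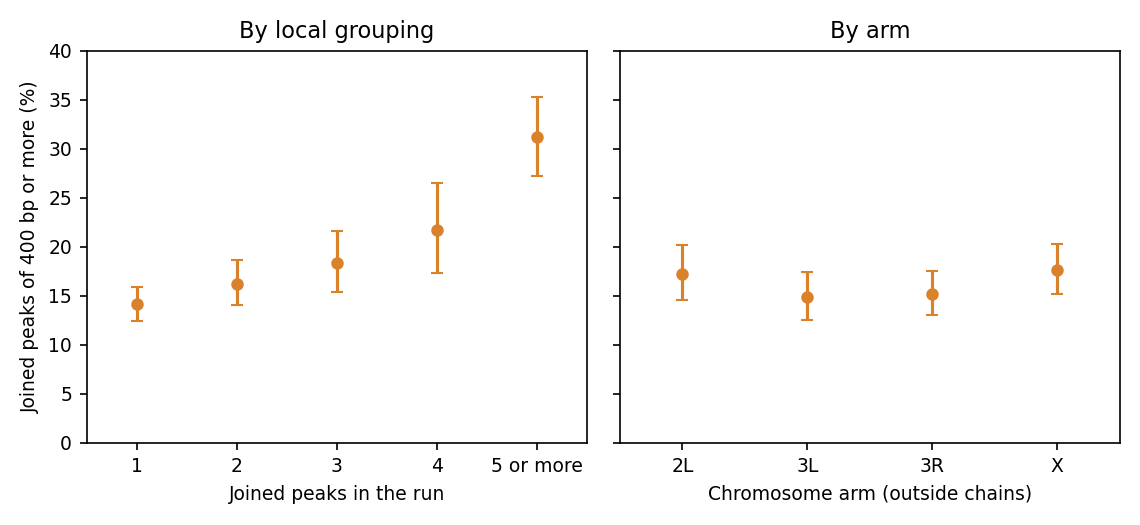
Share of joined peaks that were 400 bp or more (vertical, percent, with exact 95% intervals), by the number of joined peaks in the run (left; 5 or more is a chain) and by arm outside chains (right). The share goes from 14.1% for lone peaks to 31.2% in chains and lies between 14.9 and 17.6% on the 4 arms.

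Replicates agreed more closely in the wide peaks of chains. The median share of the joined width covered in both replicates was 72.8% (65.4 to 77.9%) in the 163 wide peaks of chains and 53.4% outside them. Under 600 bp the medians were 76.3% (67.7 to 81.5%) in chains and 54.3% (49.4 to 59.6%) outside, and at 600 bp and over 67.1% (62.6 to 76.1%) and 52.1% (49.0 to 56.7%). A peak of 400 bp or more in both replicates was present in 50.3% of those in chains and 28.9% of those outside. The median ratio of replicate 2 to replicate 1 width, over peaks made of 1 of each, was 0.827 (0.788 to 0.894) in chains and 0.619 (0.574 to 0.656) outside. The share joining several replicate peaks was 17.8% in chains and 16.5% outside, with overlapping intervals. Group size below the chain limit showed no such order, with medians of 54.5, 48.9, 55.5 and 58.1% covered in both for groups of 1, 2, 3 and 4. The median score percentile was 33.5 (29.0 to 41.2) in chains and 41.1 outside. With 2 ChIP samples of 1 group no test across samples could be made of any of these differences.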

How the data were processed

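ORC2 ChIP-seq peak lists of 2 replicates and a list joining them were used. Per the file headers, positions follow FlyBase release 5 and PeakSeq is named as the source; nothing used here states the aligner, depth, control or threshold. The score is the authors' deposited value per peak, with no stated unit. Joined peaks were matched to replicate peaks overlapping them by at least 1 bp; in all 577 wide peaks the joined limits were the outer limits of those peaks. Chains were built by midpoints. Shares have exact (Clopper-Pearson) and medians exact order-statistic 95% intervals. No test was run, because width chose the peaks and 1 group of 2 samples allows none. Members, limits and named peaks were chosen with earlier results of these data known. Peaks named by rule are the 2 widest per arm, up to 5 joining most, and 3 at each extreme of edge difference, isolation (farthest only) and score percentile, and peaks at the width limit. Alternatives changed the width limit, the chain rule, the score threshold, the overlap and the list used. No release 5 genome was used here, so no sequence or gene is given; gene names were held for release 6 only. Measures of the closer and farther edge, and of one replicate's width given the other's, were added after values were seen. Software was matplotlib 3.10.9, scipy 1.17.1, pandas 2.3.3, numpy 2.4.6 and Python 3.11.15, and the functions were tested on simulated data.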

Additional observations from a re-analysis of the deposited data

How the results depend on the processing

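Of 42 values recomputed under alternative settings, 18 stayed within the interval of the reported value (for the number of peaks, within 1.5 times) and 24 moved. With limits of 300 and 500 bp the number of wide peaks was 960 and 326, their share 26.9 and 9.14%, the share joining several peaks 10.4 and 23.0%, and the median edge difference 88.25 and 137 bp. Calling 3 or more peaks a chain gave a share of 14.95% and a nearest neighbour at 5949 bp. Scores at or above the arm median left 230 peaks (12.5%), with 57.4% covered in both and edges 88 bp apart. Requiring 400 bp covered in both left 173 peaks (4.85%), with 13.3% joining several, 86.7% covered in both and edges 31 bp apart. Without replicate 1 there were 174 wide peaks (4.19%) with nearest neighbours at 2118.5 bp, and without replicate 2 there were 407 (8.45%) at 1524 bp. These single lists included peaks without a counterpart in the other replicate. A chain spacing of 10000 bp moved none of the 6 values. No paired analysis was possible because 1 group of ChIP samples was used and no test was made. The cause of these moves was not tested. Depth is unknown, so what it limits cannot be given.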
